A study of Homo sapiens with 8 samples.

Results

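The transcript levels of 9 patterning genes were followed through a human neural differentiation course: the Iroquois genes IRX1, IRX2, IRX3, IRX4 and IRX5, and the nuclear receptor genes NR2F1, NR2F2, NR2F6 and NR6A1. They were taken by symbol, and 9 of 9 were found among the 35940 symbols of the table. The libraries came from ESI017, an established wild-type human embryonic stem cell line. The cells were kept in N2B27, a defined serum-free medium, with the supplements that the labels name SB (10 μM) and LDN (100 nM) at every time point. WNT3A, a secreted ligand of the canonical Wnt pathway, was added at 300 ng/mL at 34 h of differentiation. Poly(A) RNA was sequenced from 2 independent replicates at each of 34, 42, 50 and 72 h, which is 0, 8, 16 and 38 h after WNT3A, so that all 8 libraries share line, medium and both supplements. No series of libraries without WNT3A was analysed here, so the effect of WNT3A and that of time in culture cannot be told apart. Values are TPM, a relative transcript abundance corrected for transcript length, so that levels of different genes can be set side by side. TPM is a share of the total of its library, so a difference between libraries also depends on the other genes.

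Iroquois genes encode homeodomain transcription factors of the TALE class. In mammals they lie in 2 paralogous clusters, and in the neural plate they take part in early neural specification and in the subdivision of the anterior-posterior axis. NR2F1 and NR2F2, the COUP transcription factors, are orphan nuclear receptors that bind repeats of a short DNA element, often with retinoid X receptors, and can repress retinoid-responsive genes. NR2F6 is their more distant relative. NR6A1, also named germ cell nuclear factor, is an orphan receptor known in mouse embryos as a repressor of the pluripotency gene Oct4 as stem cells leave the pluripotent state. In bulk RNA, fewer cells of a type and less RNA per cell cannot be told apart, and this applies to every change below.

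The Iroquois genes fall at 2 places in the genome (coordinates from GENCODE 29 on GRCh38). On chromosome 5, IRX4 lies at chr5:1877413-1887236 on the minus strand, IRX2 at chr5:2745845-2751662 on the minus strand, and IRX1 at chr5:3596054-3601403 on the plus strand. The start of IRX2 lies 864.4 kb from that of IRX4 and 844.4 kb from that of IRX1. On chromosome 16, IRX3 lies at chr16:54283304-54286763 on the minus strand and IRX5 at chr16:54930862-54934485 on the plus strand, with 644.1 kb between their starts. C5orf38 (chr5:2752131-2755397, plus strand) starts 469 bases from IRX2 and points away from it. The receptor genes are not clustered: NR2F1 lies at chr5:93583224-93594615 and NR2F2 at chr15:96325938-96340263, both on the plus strand, NR2F6 at chr19:17231883-17245940 and NR6A1 at chr9:124517275-124771310, both on the minus strand.

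**Figure D1:**
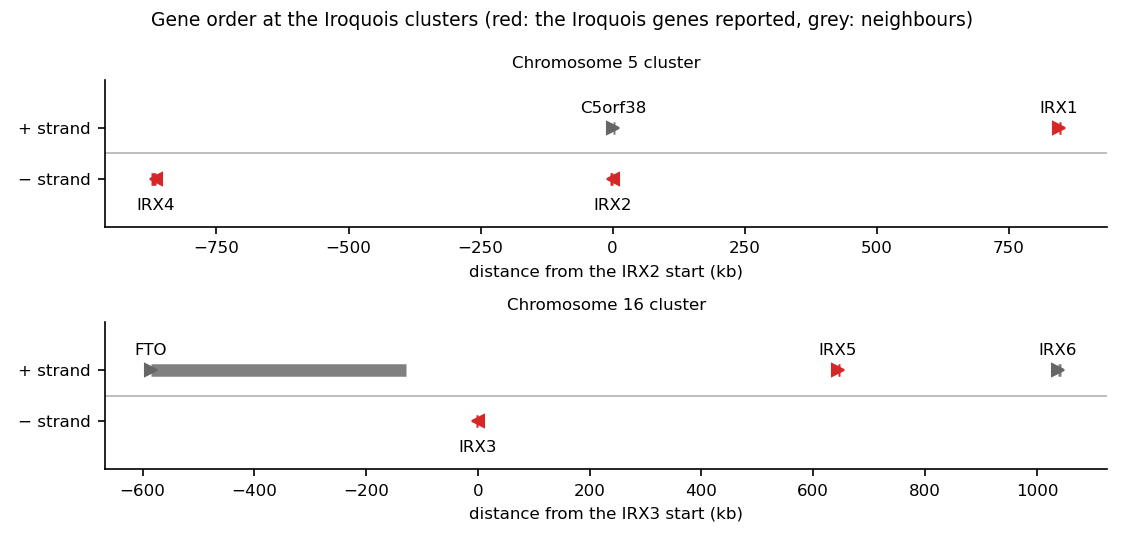
Maps of the Iroquois clusters, with the distance in kb from the start of IRX2 (upper panel, chromosome 5) or of IRX3 (lower panel, chromosome 16), genes of the plus strand above the line and of the minus strand below it, and arrowheads pointing in the direction of transcription. IRX2 and C5orf38 start 469 bases apart on opposite strands, while IRX2 and IRX1 start 844.4 kb apart.

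RefSeq promoter windows (GRCh38.p14, 250 bases upstream of an annotated start) were matched for 6 of the 9 genes: IRX1, IRX2, IRX4, NR2F1, NR2F2 and NR6A1. The IRX2 window is shown because it is shared. C5orf38 has the RefSeq name IRX2-DT, for divergent transcript, and 215 bases (chr5:2751678-2751892) separate the RefSeq starts of the pair. RefSeq lists it as a non-coding RNA and GENCODE 29 as protein coding. The windows of IRX1 and NR2F1 are shown because each holds CTTTGAT, the core letters bound by the TCF/LEF factors of the Wnt pathway, on 1 of its strands. The IRX2 window is chr5:2751678-2751927, minus strand, with the bases between both starts in capitals. The IRX1 window is chr5:3595582-3595831, plus strand. The NR2F1 window is chr5:93582972-93583221, plus strand. In the last of these windows and in that of IRX1 the capitals mark the TCF/LEF letters, read 5′ to 3′.
IRX2: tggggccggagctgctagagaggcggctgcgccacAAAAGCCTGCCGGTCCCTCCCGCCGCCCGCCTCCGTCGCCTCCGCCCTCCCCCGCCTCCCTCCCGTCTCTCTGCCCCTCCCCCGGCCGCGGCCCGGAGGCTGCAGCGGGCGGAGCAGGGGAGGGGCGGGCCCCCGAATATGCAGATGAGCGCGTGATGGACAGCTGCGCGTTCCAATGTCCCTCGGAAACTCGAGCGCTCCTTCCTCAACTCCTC
IRX1: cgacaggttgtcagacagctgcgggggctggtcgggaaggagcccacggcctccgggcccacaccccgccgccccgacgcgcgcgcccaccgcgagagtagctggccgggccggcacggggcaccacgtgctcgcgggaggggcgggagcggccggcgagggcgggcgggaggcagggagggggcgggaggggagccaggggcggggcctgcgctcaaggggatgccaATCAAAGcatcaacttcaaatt
NR2F1: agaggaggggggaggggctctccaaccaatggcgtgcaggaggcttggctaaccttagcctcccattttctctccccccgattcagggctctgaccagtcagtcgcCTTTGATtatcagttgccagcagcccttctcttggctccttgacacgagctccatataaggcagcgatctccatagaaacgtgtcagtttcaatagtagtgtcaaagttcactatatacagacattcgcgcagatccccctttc

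The IRX1 match (ATCAAAG, the letters on the opposite strand) begins 22 bases before the start, and the NR2F1 match 144 bases before it. A second NR2F1 window (chr5:93586849-93587098), which lies within the gene, also holds 1 match. Over all 35116 RefSeq windows, 2.26% hold the 7 letters on either strand. The windows of IRX2, IRX4, NR2F2 and NR6A1 do not hold them. Both NR2F2 windows (chr15:96332315-96332564 and chr15:96333515-96333764) lie within the gene, past its GENCODE 29 start. The sequence before that start was thus not searched, for these letters or for the motifs below. None of the matched windows held the nuclear receptor element AGGTCA (12.1% of all windows), its NR6A1 form TCAAGGTCA (0.319%, which contains AGGTCA), or repeats of AGGTCA with 1 or 5 bases between (0.0171% and 0.00285%). None held the Iroquois palindrome ACANNTGT (4.71%). All motifs were searched as exact letters on both strands. The IRX2 and IRX1 windows were rich in G and C (72.8% and 75.2%, with 27 and 29 CpG), against a median of 58.0% and 11 CpG over all windows, and that of NR2F1 was below it (52.4%, 8 CpG). These letters describe the windows and do not show binding.

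Of the 9 genes, 7 reached 1 TPM in at least 2 of the 8 libraries and were tested. IRX4 and NR2F1 stayed under 1 TPM in every library. Changes were tested with limma on log2(TPM + 1), with Benjamini-Hochberg adjustment over all 14908 tested genes, and a change was called at an adjusted p under 0.05. This scale understates the change of low genes. NR2F2 was under 1 TPM at 34 h and 42 h and passed the filter through later libraries alone, as did several list genes named below. The filter thus favours a rise for them, and counts that hold them are descriptions. Over the course as a whole 6 of the 7 differed between time points, where 17.4% of all tested genes did: IRX1, IRX2, IRX3, IRX5, NR2F2 and NR6A1. The exception was NR2F6 (adjusted p = 0.976). The call of IRX5 over the whole course was lost without either 34 h library, replicate 1 at 42 h or replicate 2 at 50 h, and without a filter on low values, which left 5 of 7.

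Against 34 h, 2 of the 7 (IRX1 and IRX3) had risen at 42 h, where 2.58% of all tested genes were called. At 50 h 4 had risen (IRX1, IRX3, IRX5 and NR6A1), against a background of 6.26%. At 72 h 4 had risen (IRX1, IRX2, NR2F2 and NR6A1), where 24.0% of all genes were called, and no member fell against 34 h at any time. The 3 comparisons share the 34 h libraries. Between 42 h and 50 h no member was called by limma, with 3 at an unadjusted p under 0.05 and 0.0939% of all genes called. Between 50 h and 72 h 2 were called, IRX1 and NR2F2, both upward, at a background of 7.33%. The counts move with the libraries: at 42 h none was called without replicate 2 at 34 h or replicate 1 at 42 h, and IRX1 alone without replicate 2 at 42 h. At 50 h 1 was left without replicate 2 at 34 h or replicate 1 at 50 h, and 2 without replicate 2 at 50 h. For 72 h against 50 h none was left without replicate 2 at 50 h or either 72 h library, and IRX1 alone without either 34 h library or replicate 1 at 50 h. The 4 calls at 72 h against 34 h were kept under each left-out library.

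**Figure D2:**
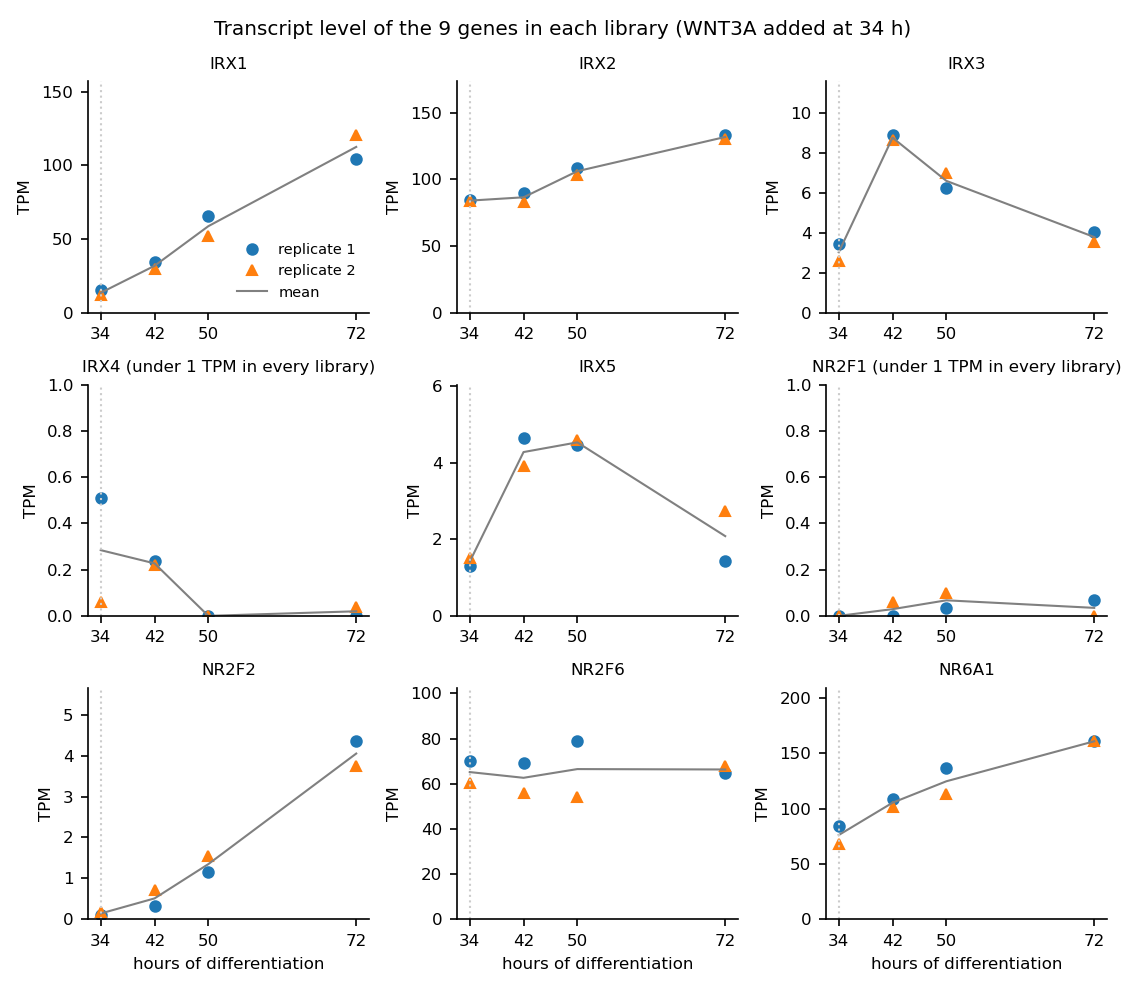
TPM of each of the 9 genes (vertical axis, its own scale per panel) against hours of differentiation, with replicate 1 as circles, replicate 2 as triangles, the mean as a line and the addition of WNT3A as a dotted line. IRX1, IRX2, NR2F2 and NR6A1 are highest at 72 h, IRX3 and IRX5 at 42 h or 50 h, and IRX4 and NR2F1 stay under 1 TPM.

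Within the chromosome 5 cluster, IRX1 was above its 34 h level at each later time and IRX2, which was already high, was above it at 72 h. IRX1 stood at 15.1 and 11.8 TPM at 34 h, 34.2 and 29.4 at 42 h, 65.5 and 51.9 at 50 h, then 104.3 and 120.7 at 72 h (replicates 1 and 2). The ranges of the 4 time points did not overlap, and each later pair lay above the earlier. The mean went from 13.5 ± 2.34 TPM to 112.5 ± 11.6 (SD, n = 2 each), an 8.34-fold rise. On the log2 scale the change was 1.18 ± 0.17 (SE) at 42 h (limma adjusted p = 0.00838), 2.04 at 50 h (0.000328) and 2.98 ± 0.17 at 72 h (1.507e-05). Within the replicates the change at 72 h was 2.71 and 3.25. The step from 42 h to 50 h was 0.86 with an adjusted p of 0.149. The step from 50 h to 72 h was 0.93 (0.0144). The 42 h call was lost without replicate 2 at 34 h (adjusted p = 0.0723) or replicate 1 at 42 h (0.0704). That from 50 h to 72 h was lost without replicate 2 at 50 h (0.0776), replicate 1 at 72 h (0.0622) or replicate 2 at 72 h (0.0979).

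IRX2 measured 84.3 and 83.9 TPM at 34 h, 89.8 and 83.4 at 42 h, 108.8 and 103.6 at 50 h, then 133.5 and 130.3 at 72 h. The 34 h and 42 h ranges overlapped, and those of 50 h and 72 h lay apart above them. The rise from 34 h to 72 h was 1.57-fold, or 0.64 ± 0.09 in log2 units (limma adjusted p = 0.00139), with 0.66 in replicate 1 and 0.63 in replicate 2. At 42 h the change was 0.04 (adjusted p = 0.916), with an interval of -0.16 to 0.24, and at 50 h it was 0.33 (0.0637). The step from 50 h to 72 h was 0.31 (0.0708), and late minus early, as defined below, was -0.02 (0.970).

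IRX4, the third gene of this cluster and best known from the ventricle of the heart, read 0.510 and 0.0590 TPM at 34 h, 0.236 and 0.219 at 42 h, 0 and 0 at 50 h, then 0 and 0.0395 at 72 h. Its 34 h replicates differed more than its time points did, and it was not tested at the filter used. C5orf38, the divergent neighbour of IRX2, was among the genes chosen as locus neighbours. It read 64.9 and 87.5 TPM at 34 h, 95.9 and 93.1 at 42 h, 120.8 and 85.7 at 50 h, then 172.8 and 153.4 at 72 h. At 72 h the libraries stood above all others, both 42 h libraries stood above those of 34 h, and the 50 h range overlapped each of these. The change to 72 h was 1.10 ± 0.18 on the log2 scale (adjusted p = 0.00397).

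The 2 expressed Iroquois genes of chromosome 5 did not rise by like amounts. The ratio of IRX1 to IRX2 TPM was 0.180 and 0.141 at 34 h, 0.381 and 0.352 at 42 h, 0.602 and 0.501 at 50 h, then 0.781 and 0.926 at 72 h, with no overlap between time points. The ratio of C5orf38 to IRX2, across the shared promoter shown above, ran from 0.769 to 1.29 over all 8 libraries. Its 42 h values lay just above those of 34 h, the 50 h range overlapped both, and those at 72 h (1.29 and 1.18) were the highest.

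**Figure D3:**
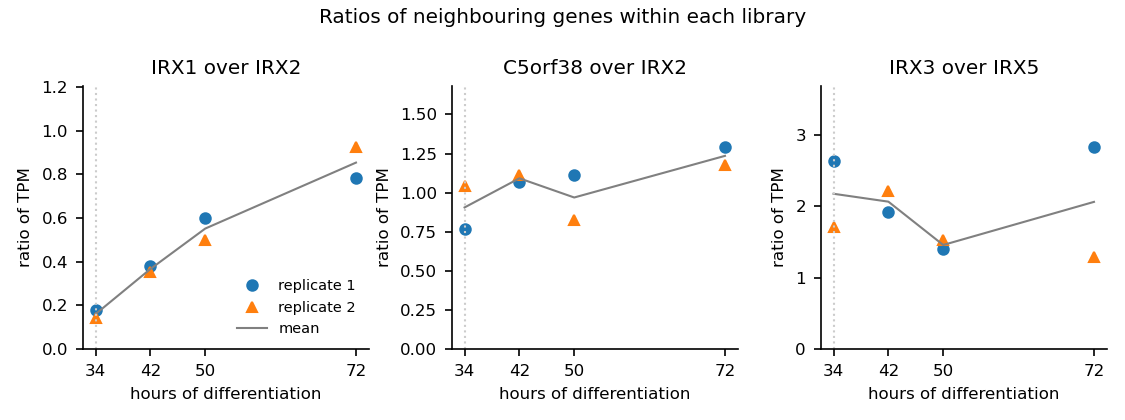
Ratio of TPM between neighbouring genes (vertical axis, from 0) in each library against hours of differentiation, replicate 1 as circles, replicate 2 as triangles and the mean as a line. IRX1 over IRX2 climbs from 0.180 and 0.141 to 0.781 and 0.926, whereas C5orf38 over IRX2 keeps between 0.769 and 1.29 and IRX3 over IRX5 scatters between 1.29 and 2.83.

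The chromosome 16 genes IRX3 and IRX5 had their highest levels at 42 h or 50 h and lower ones at 72 h. In the embryo both are expressed widely in the neural tube behind the anterior forebrain, and IRX3 takes part in positioning boundaries there. IRX3 read 3.46 and 2.61 TPM at 34 h, 8.92 and 8.64 at 42 h, 6.23 and 6.99 at 50 h, then 4.07 and 3.52 at 72 h. The 42 h libraries were the highest, those of 50 h came next, and those of 72 h lay just above those of 34 h without overlap. IRX3 rose 2.90-fold to 42 h, by 1.29 ± 0.18 in log2 units (limma adjusted p = 0.00828), and was 0.92 above 34 h at 50 h (0.0217). At 72 h it was 0.26 above 34 h, with an interval of -0.16 to 0.67 (0.342), and between 0.10 and 0.41 with a library left out. The 42 h call was lost without replicate 2 at 34 h (0.0730), replicate 1 at 42 h (0.0655) or replicate 2 at 42 h (0.0620). The 50 h call was lost without replicate 2 at 34 h (0.138), replicate 1 at 50 h (0.0738) or replicate 2 at 50 h (0.102).

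IRX5 read 1.31 and 1.53 TPM at 34 h, 4.65 and 3.92 at 42 h, 4.47 and 4.60 at 50 h, then 1.44 and 2.73 at 72 h. The 4 middle libraries lay above the other 4, and the ranges of 34 h and 72 h overlapped. At 42 h it was 1.13 ± 0.24 higher than at 34 h on the log2 scale, with a limma adjusted p of 0.0576, and at 50 h 1.20 ± 0.24 higher (0.0257), a 3.20-fold ratio of means. At 72 h the difference from 34 h was 0.32 (0.378), and between 0.01 and 0.63 with a library left out. Leaving out any of the 4 libraries compared ended the 50 h call: replicate 1 (adjusted p = 0.130) or replicate 2 (0.107) at 34 h, replicate 1 (0.1036) or replicate 2 (0.1004) at 50 h. The 42 h difference passed without replicate 1 (0.0417) or replicate 2 (0.0448) at 72 h.

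The late minus early contrast sets the change from 50 h to 72 h (22 h) against that from 34 h to 50 h (16 h). It was -1.59 ± 0.31 for IRX3 (limma adjusted p = 0.0469), the 1 member called, where 1.99% of all genes were. With the replicate number as a block that p was 0.0615, and it was above the threshold without any 1 library (0.0652 to 0.249). For IRX5 the contrast was -2.07 ± 0.42 (0.0534), and 0.0385 without replicate 2 at 72 h. The steps from 50 h to 72 h were not called by themselves (IRX3 -0.67, adjusted p = 0.0651, and IRX5 -0.88, 0.0710). With a library left out the IRX3 step ran from -0.75 to -0.59 and the IRX5 step from -1.18 to -0.57. After these values had been seen, the mean of 42 h and 50 h was set against that of 34 h and 72 h, which restates the pattern that prompted it and is not independent support. IRX3 was 0.98 ± 0.13 higher in the middle (adjusted p = 0.00487), with 0.83 and 1.12 within the replicates, and kept the call under each left-out library. IRX5 was 1.00 ± 0.17 higher (0.0177), with 1.23 and 0.77 within the replicates. These 2 of 7 members were called in that contrast, against 4.29% of all genes. The IRX5 call was lost without replicate 1 at 42 h, replicate 1 at 72 h, or any library of 34 h or 50 h, with adjusted p between 0.0528 and 0.0684.

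The ratio of IRX3 to IRX5 was 2.64 and 1.71 at 34 h, 1.92 and 2.21 at 42 h, 1.39 and 1.52 at 50 h, then 2.83 and 1.29 at 72 h, and showed no separation of 34 h from 72 h. IRX6, the third gene of the chromosome 16 cluster, did not exceed 0.219 TPM. IRX1, IRX2 and IRX4 together made 95.5% and 95.7% of the TPM of the 6 Iroquois genes at 34 h, 90.1% and 89.9% at 42 h, 94.2% and 93.1% at 50 h, then 97.7% and 97.6% at 72 h. The share was lowest at 42 h and highest at 72 h, with both replicates of each apart from all others.

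**Figure D4:**
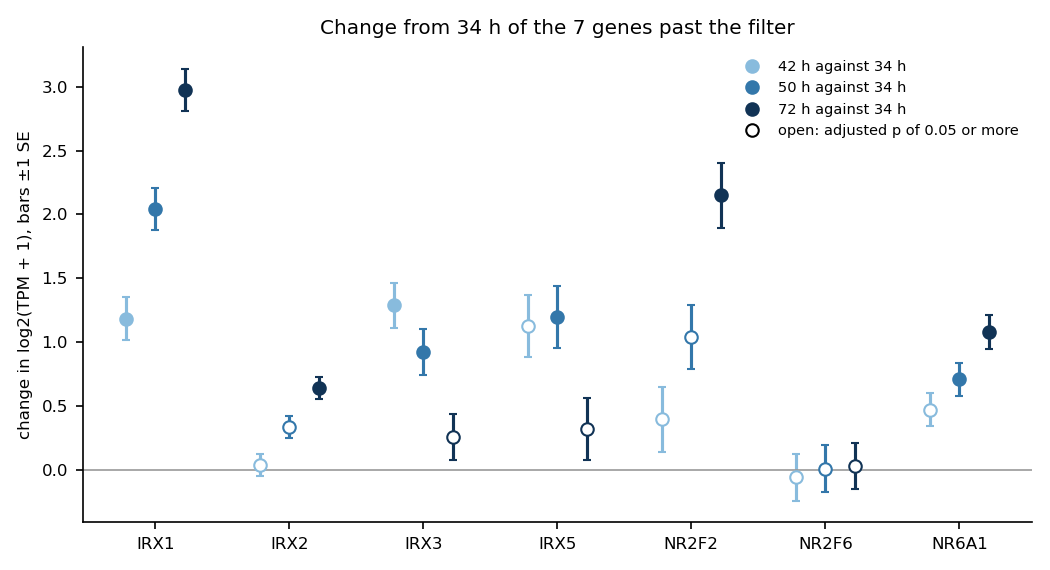
Change in log2(TPM + 1) from 34 h (vertical axis) of the 7 tested genes at 42 h, 50 h and 72 h, with bars of 1 SE from limma and open symbols where the adjusted p was 0.05 or more. IRX1 reaches 2.98 and NR2F2 2.15 at 72 h, IRX3 and IRX5 are at 0.26 and 0.32, and NR2F6 stays near 0.

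The NR2F genes each showed another level and course. NR2F2 rose from near absence: 0.109 and 0.165 TPM at 34 h, 0.311 and 0.702 at 42 h, 1.15 and 1.54 at 50 h, then 4.35 and 3.75 at 72 h. Each pair lay above the pair before it. The mean at 72 h (4.05 ± 0.42 TPM, SD, n = 2) was 29.6 times that at 34 h (0.137 ± 0.040), a ratio resting on 34 h values far under 1 TPM. On the log2(TPM + 1) scale the change was 2.15 ± 0.25 (limma adjusted p = 0.000715), and in replicates 1 and 2 it was 2.27 and 2.03. At 50 h it was 1.04 (0.0511). With a pseudocount of 0.1 the 50 h change was 2.60 (0.0274) and the 72 h change 4.14, so its size depends on the pseudocount. The step from 50 h to 72 h was 1.11 (0.0367), and was no longer called without replicate 1 (0.0597) or 2 (0.0592) at 34 h, replicate 1 (0.135) or 2 (0.0933) at 50 h, or replicate 1 (0.213) or 2 (0.135) at 72 h.

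NR2F1, its closest relative, was at or near 0: 0 and 0 TPM at 34 h, 0 and 0.0581 at 42 h, 0.0357 and 0.0989 at 50 h, then 0.0691 and 0 at 72 h. It was detected in 4 of 8 libraries, with no order by time. Its promoter window shown above, like that of IRX1, holds the TCF/LEF letters. NR2F6 was high throughout: 70.2 and 60.2 TPM at 34 h, 69.2 and 56.0 at 42 h, 78.8 and 54.2 at 50 h, then 65.0 and 67.6 at 72 h. Its time points overlapped, replicate 1 was higher at 34 h, 42 h and 50 h, and replicate 2 at 72 h. The change to 72 h was 0.03 on the log2 scale (adjusted p = 0.930), with an interval of -0.39 to 0.45, and the sign turned with the scaling (-0.03 after TMM rescaling).

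Because NR2F2 also marks mesenchyme and neural crest derivatives, markers of other cell types were summed in each library. Of 6 mesoderm markers 1 passed the filter and was not called, and the sum of the 6 was 4.93 to 5.60 TPM at 34 h and 4.87 to 5.43 at 72 h, with MSGN1 at 0 in every library. The 6 neural crest markers summed to 7.08 to 9.02 TPM at 34 h and 12.4 to 14.1 at 72 h. PAX3 reached 1 TPM at 72 h alone (4.82 and 4.24) and FOXD3 at 34 h alone (4.65 and 4.48), while SNAI2 went from 0.339 and 0.360 to 6.99 and 5.19 TPM. SOX10 read 3.13 and 2.18 TPM at 34 h and 2.27 and 2.92 at 72 h, and TFAP2A and TFAP2B did not reach 1 TPM. Of the 4 tested, 2 rose and 1 fell, with directions that the filter fixed in part. The part of such cells in the rise of NR2F2 was not tested. Endoderm markers went from 13.3 to 15.3 TPM down to 6.93 to 8.08, with SOX17 at 0 throughout, and 2 of 5 could be tested (1 rose, 1 fell, where 24.0% of all tested genes were called).

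Among 7 tested genes of 9 chosen as NR2F partners and cofactors, 0 were called at 42 h (2 at an unadjusted p under 0.05, limma), 1 rose at 50 h, and 2 rose and 1 fell at 72 h. Over all tested genes 2.58%, 6.26% and 24.0% were called at these times, and RXRG passed the filter through later libraries alone. RXRG, a retinoid X receptor able to pair with NR2F proteins, read 0.323 and 0.295 TPM at 34 h, 1.36 and 0.770 at 42 h, 3.15 and 2.45 at 50 h, then 4.18 and 4.20 at 72 h. Its pairs did not overlap, and the change to 72 h was 1.99 (adjusted p = 0.000782). Its 50 h call (1.53, 0.00766) was lost without replicate 2 at 34 h (0.0539) or replicate 1 at 50 h (0.0595). RXRA, the broadly expressed member of that family, went from 15.8 and 12.4 to 24.8 and 24.8 TPM (0.78, adjusted p = 0.0130). Its call was lost without replicate 2 at 34 h (0.0845), or replicate 1 (0.0661) or 2 (0.0652) at 72 h. BCL11A, a zinc finger protein that binds NR2F proteins, fell by 1.09 (0.00329), from 22.7 and 17.1 to 7.88 and 9.64 TPM. The median change of the 7 at 72 h was 0.26, which, with RXRG among them, is not read against that of all genes.

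NR6A1 was the most abundant of the 9 genes from 42 h on, and rose. It read 84.0 and 68.1 TPM at 34 h, 109.1 and 101.5 at 42 h, 136.6 and 112.8 at 50 h, then 160.9 and 160.9 at 72 h. Each pair lay above the one before, and the 72 h replicates were the closest. The rise to 72 h was 2.12-fold, or 1.08 ± 0.13 in log2 units (limma adjusted p = 0.000817), and in replicates 1 and 2 it was 0.93 and 1.23. At 42 h the change was 0.47 (0.133) and at 50 h 0.71 ± 0.13 (0.0169). The 50 h call was lost without replicate 2 at 34 h (0.109) or replicate 1 at 50 h (0.0861).

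Of 9 genes chosen as reported NR6A1 targets or as members of the LIN28 axis, 6 were tested. At 42 h 0 were called (2 at an unadjusted p under 0.05, limma), at 50 h 1 rose and 2 fell, and at 72 h 2 fell, where 2.58%, 6.26% and 24.0% of all tested genes were called. POU5F1, which encodes OCT4, read 1165 and 1152 TPM at 34 h, 1087 and 989 at 42 h, 842 and 892 at 50 h, then 355 and 388 at 72 h. Its value sums 4 Ensembl rows, and near-identical pseudogenes make it less certain. The pairs did not overlap. Its change was -0.42 at 50 h (adjusted p = 0.0197) and -1.64 at 72 h, the former lost without either 34 h library (0.110 and 0.107) or replicate 1 at 50 h (0.0920), without a filter (0.0523) or a variance trend (0.0965), and with both time points alone (0.0544). TDGF1, the Nodal co-receptor, fell from 743 and 785 TPM to 2.94 and 6.13 (-7.17 at 72 h). LIN28A, an RNA-binding protein that blocks let-7 maturation, was the gene that rose at 50 h (0.32, adjusted p = 0.0467), a call lost without any 1 library (0.0598 to 0.211) and with the replicate block (0.0531). At 72 h it read 1078 and 971 TPM, against 908 and 897 at 34 h (0.18, 0.122). LIN28B changed by -0.14 at 72 h (0.426) and NANOG by -0.86 (0.0576). The list's median change was 0.05, -0.12 and -0.82 at 42, 50 and 72 h. At 72 h it lies between NANOG and PRM1 (-0.79), which were under 1 TPM at 72 h and passed the filter through earlier libraries alone. The filter thus favours a fall for them, and the medians are not read against those of all genes. The sum of 6 pluripotency markers went from 2530 to 2564 TPM at 34 h to 901 to 917 at 72 h (3 fell, 1 rose). POU5F1, TDGF1 and NANOG are among them. POU5F1 and TDGF1 made most of the fall, so the sum largely restates them. The sum of 7 neural progenitor markers went from 382 to 400 up to 691 to 741 (5 of 6 tested rose). SOX2 is in both marker lists and is counted in each as a rise, and PAX6 passed the filter through the 72 h libraries alone. The part of these markers in the rise of NR6A1 was not tested.

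Ordered by level at 34 h, IRX2, NR6A1 and NR2F6 led with means of 84.1, 76.1 and 65.2 TPM, and each neighbouring pair overlapped between replicates. IRX1, IRX3 and IRX5 followed, each apart from the next. IRX4 and NR2F2 overlapped at the foot, and NR2F1 was at 0. At 42 h NR6A1 stood above IRX2, NR2F6 and IRX1, all apart, and at 50 h NR2F6 and IRX1 overlapped. At 72 h the order was NR6A1 (160.9), IRX2 (131.9), IRX1 (112.5) and NR2F6 (66.3), all apart. NR2F2 (4.05) and IRX3 (3.79) overlapped, IRX5 (2.09) lay below, and NR2F1 and IRX4 were under 0.1 TPM. The mean of NR6A1 over the 8 libraries was at or above that of 96.7% of the symbols in the table, that of IRX5 66.9%.

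Of the genes given as boundary or cross-repression partners of Iroquois factors, 6 of 12 were tested. At 42 h and at 50 h 2 rose and 1 fell, and at 72 h 4 rose and 1 fell. Over all tested genes 2.58%, 6.26% and 24.0% were called at 42, 50 and 72 h. NKX6-1, DBX1 and PAX6 were under 1 TPM at 34 h and passed the filter through later libraries alone. GBX2, the hindbrain-side factor of the midbrain-hindbrain boundary, went from 1.31 and 1.21 TPM at 34 h to 101.6 and 85.9 at 42 h, and stayed between 97.8 and 131.6 thereafter. OTX2, its counterpart on the forebrain and midbrain side, fell from 167.8 and 150.9 to 40.3 and 48.8 TPM at 42 h and 31.8 and 38.8 at 72 h. NKX6-1, a ventral neural tube factor, was at 0 and 0.130 TPM at 34 h, 8.41 and 5.82 at 42 h, 4.19 and 4.16 at 50 h, then 5.08 and 6.15 at 72 h. DBX1 and PAX6, of intermediate neural tube domains, were the further genes called at 72 h (log2 changes of 3.02 and 2.06). The median change of the list was 0.75, 0.66 and 2.35 at the 3 times. The filter fixes it in part, so it is not read against that of all genes.

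Retinoid response genes were counted because NR2F receptors bind retinoid-type sites. Of 8 tested of 9, 0 rose and 1 fell (CYP26A1) at 42 h. At 50 h 1 rose (STRA6) and 2 fell (CYP26A1 and DHRS3). At 72 h 4 rose (CYP26C1, HOXB1, RARB and STRA6) and 1 fell (DHRS3). CYP26C1, HOXB1 and RARB passed the filter through the 72 h libraries alone, so the 72 h count is not read against the 24.0% of all tested genes. At 42 h and 50 h the shares of all genes were 2.58% and 6.26%. CYP26A1, which degrades retinoic acid, read 21.7 and 23.5 TPM at 34 h, 4.27 and 6.96 at 42 h, 2.92 and 6.67 at 50 h, then 44.9 and 43.3 at 72 h. Its course was low in the middle, and the 72 h difference from 34 h was 0.94 (limma adjusted p = 0.0604). Its 42 h call was lost without replicate 1 (0.0996) or 2 (0.134) at 34 h or replicate 1 at 42 h (0.112), and the STRA6 call at 50 h without replicate 2 at 34 h (0.0550). DHRS3, a retinaldehyde reductase, changed by -2.33 at 72 h, from 39.0 and 32.0 to 5.74 and 6.81 TPM. The list's median was 0.03 and 0.29 at 42 h and 50 h, where CYP26C1, HOXB1 and RARB were under 1 TPM in every library, and 0.99 at 72 h. Like the 72 h count, these medians are not read against those of all genes.

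Of 21 other orphan nuclear receptors 10 were tested. At 42 h and at 50 h 1 rose (RORA), and 1 at 72 h (ESRRB), where 2.58%, 6.26% and 24.0% of all tested genes were called. The median changes were 0.09, 0.25 and 0.21. ESRRB was under 1 TPM at 34 h, and ESRRG passed the filter through the 72 h libraries alone (1.08 and 1.31 TPM). The filter favours a rise for both, so the medians are not read against those of all genes. RORA read 3.49 and 3.53 TPM at 34 h, 6.80 and 8.38 at 42 h, 6.98 and 6.49 at 50 h, then 4.10 and 4.73 at 72 h, highest in the 4 middle libraries. Its change was 0.92 at 42 h (limma adjusted p = 0.0314), lost without any 1 library (0.0508 to 0.203). At 50 h it was 0.78 (0.0363), lost without any library of 34, 50 or 72 h (0.0587 to 0.157). ESRRB rose by 0.97 at 72 h (0.0270) from 0.612 and 0.487 to 2.64 and 1.52 TPM, a call lost without replicate 1 (0.0818) or 2 (0.117) at 34 h or replicate 1 at 72 h (0.172). Of 12 symbols given as locus neighbours, where C5orf38 and IRX2-DT name the same gene, 7 were in the table and 6 tested. None was called at 42 h (0 at an unadjusted p under 0.05) or at 50 h (1), and at 72 h 2 of 6 rose, C5orf38 and FTO, where 24.0% of all tested genes were called. FTO, which encodes an RNA demethylase and starts 585.1 kb from IRX3, went from 41.4 and 30.7 to 64.4 and 60.5 TPM (0.79, adjusted p = 0.00550). The medians of the neighbours were 0.05, 0.21 and 0.38, beside 0.01, 0.04 and 0.06 over all tested genes.

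**Figure D5:**
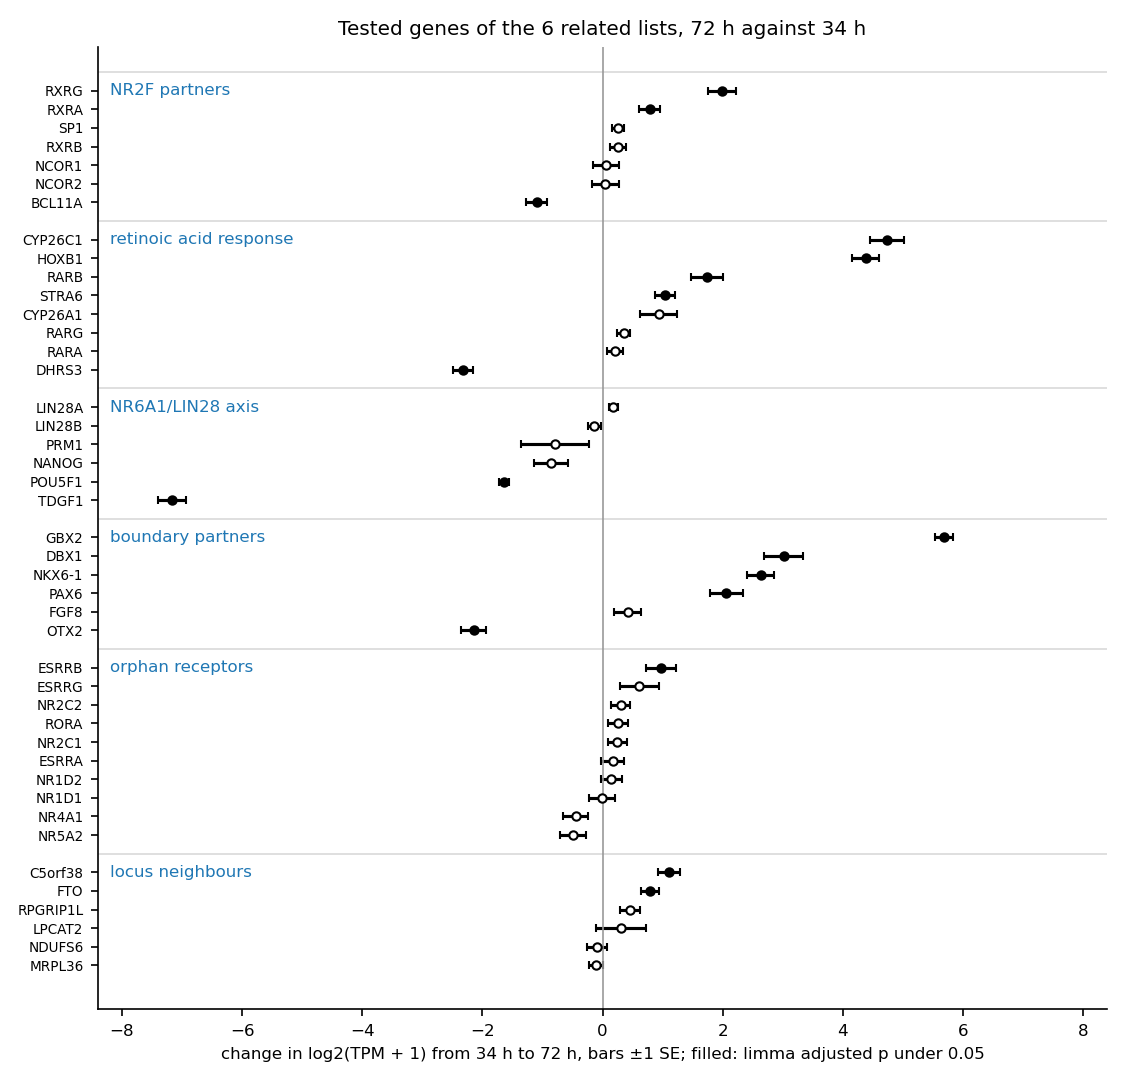
Change in log2(TPM + 1) from 34 h to 72 h (horizontal axis, bars of 1 SE from limma) of the tested genes of the 6 related lists, filled where the adjusted p was under 0.05. GBX2 (5.68) and CYP26C1 (4.74) lie farthest to the right, TDGF1 (-7.17) farthest to the left, and of the orphan receptors ESRRB alone is filled.

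The genes whose course was most like that of each member were taken by Pearson's r of log2(TPM + 1) over the 8 libraries, among 11535 genes, as a description that draws on 4 time points. For IRX1 they were GREB1 (r = 0.996), PCDHGC4 (0.992) and MN1 (0.990). PCDHGC4 shares exons with the other protocadherin gamma genes, so its value is uncertain. For NR6A1 they were PCDHGC4 (0.998), DCLRE1B (0.995) and the retinoid-binding gene CRABP2 (0.993). For IRX2 they were the Wnt ligand gene WNT8A (0.993), WFIKKN1 (0.993) and NCAN (0.992), and for NR2F2 COPG2 (0.992) and DAZL (0.989). For IRX3 they were PTPRG (0.983), the growth factor gene FGF18 (0.975) and DSP (0.971). The gene nearest to IRX5 was CDX2 (0.988), a caudal homeobox gene, followed by ATOH8 (0.967) and CYP1B1 (0.963). CDX2 had means of 0.0198, 7.69, 6.34 and 1.27 TPM, and FGF18 of 0.549, 7.13, 5.04 and 1.09, at the 4 time points, both high in the middle like the gene they were matched to. For NR2F6, whose spread was between replicates, they were POP7 (0.983), SLC35C1 (0.976) and BOP1 (0.976). Among the members the highest values were 0.986 for IRX1 with NR6A1, 0.957 for IRX2 with NR2F2 and 0.933 for IRX1 with IRX2, while IRX3 and IRX5 gave 0.865.

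Across genes, Spearman coefficients were 0.980 to 0.984 between replicates of 1 time point, and between time points 0.933 to 0.982. Between 13860 and 14004 symbols reached 1 TPM per library. The number of reads per library is unknown, since TPM sums to the same total, so no counting interval is given. The remaining marker sums were 0.762 to 1.73 TPM at 34 h and 70.0 to 76.9 at 72 h for 5 hindbrain genes, of which HOXB1, HOXA2 and HOXB2 reached 1 TPM at 72 h alone. They were 213 to 266 and 184 to 216 for 6 neuron genes (2 of 4 tested rose, among them STMN2, under 1 TPM at 34 h). TUBB3 alone read 261.0 and 209.6 TPM at 34 h and 168.0 and 201.5 at 72 h, so that sum is mostly TUBB3. For 6 surface ectoderm genes the sums were 495 to 527 and 179 to 213 (2 of 2 tested fell). These 2 were KRT8 (255.1 and 227.0 TPM at 34 h) and KRT18 (271.7 and 266.7), which made nearly all of that sum. KRT5, KRT14, TP63 and GATA3 did not exceed 1.175 TPM in any library. At 72 h 24.0% of all tested genes were called. With 2 libraries a side, the smallest two-sided p of an exact permutation test is 0.333, so single genes were not tested that way.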

How the data were processed

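Poly(A) RNA of 8 libraries (4 time points, 2 replicates each) was sequenced as paired-end 150-bp reads, per the labels. The authors deposited 1 table of TPM per Ensembl gene. Salmon 1.9.0 and GRCh38 are named in the submitters' processing notes; the annotation, filters and strand setting are not given in the sources used here. The 37951 rows were summed by symbol to 35940 symbols (1034 symbols had more than 1 row). Symbols with at least 1 TPM in at least 2 libraries (14908) were tested on log2(TPM + 1) with limma 3.58.1 in R 4.3.3: 1 mean per time point, a variance trend with the mean, and Benjamini-Hochberg adjustment over all tested symbols. Whole counts were not available, so no count model was used. A change was called at an adjusted p under 0.05. Intervals are 95% intervals from limma. The series calls the replicates independent, and the replicate number is also the batch label, so it pairs the libraries. Deviations from the time point means of same-numbered libraries correlated at -0.104 to 0.195 between time points.

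The genes and lists were chosen with earlier results of these data known, so list counts are descriptions. Named genes were the 9 members, the genes of the lists and markers, and the 3 genes most like each tested member (mean of at least 5 TPM at 1 time point). Some genes that these rules name are not reported here. Of the lists' genes, IRX2-DT, IRX4-AS1, CRNDE, NR2F1-AS1 and NR2F2-AS1 were not matched by symbol. Alternatives were a pseudocount of 0.1, no filter, a filter on the mean (at least 5 TPM), rescaling by trimmed means of log ratios (TMM, factors computed directly), quantile normalization, no variance trend, the replicate block, Ensembl rows kept apart, the compared time points alone, and leaving out each library. The contrast of 42 h and 50 h with 34 h and 72 h was added after the data had been examined. Motifs were matched as exact letters in RefSeq promoter windows.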

Additional observations from a re-analysis of the deposited data

How the results depend on the processing

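The calls of IRX1, IRX2, NR2F2 and NR6A1 at 72 h against 34 h were kept under every alternative that tested them, left-out libraries included; a mean of at least 5 TPM left IRX5 and NR2F2 untested, and 42 h against 34 h alone left NR2F2 untested. Of 804 member alternatives 716 kept direction and call, and of 34 list gene results 25 kept theirs under all. Where not stated, the cause of a change was not tested. Without a filter on low values (more genes tested) the 50 h against 34 h changes of IRX3 (0.92, adjusted p = 0.0598) and IRX5 (1.20, 0.0666) and the middle contrast of IRX5 (1.00, 0.0575) were lost, with its call over the whole course, that of NR2F2 at 50 h (1.04, 0.0463) was gained, and the gene counts were 8 for 50 h against 42 h, 171 for late minus early and 373 for the middle contrast, against 14, 297 and 640. With 50 h and 34 h fitted alone (fewer libraries) IRX3 (0.92, 0.0725) and NR6A1 (0.71, 0.0648) were lost and 596 genes were called instead of 933. A pseudocount of 0.1 gave NR2F2 2.60 at 50 h (0.0274), 1.53 for 72 h against 50 h (0.138) and -1.07 for late minus early. Without a variance trend IRX5 at 42 h (1.13, 0.0487), NR2F2 at 50 h (1.04, 0.0174) and IRX3 for 72 h against 50 h (-0.67, 0.0446) were gained. Quantile normalization gained IRX2 (0.38, 0.0300) and NR6A1 (0.46, 0.0488) for 72 h against 50 h. The late minus early value of IRX3 stayed at -1.59 but was lost without a filter (0.127), with a mean of at least 5 TPM (0.0530), by quantile normalization (0.0526), with Ensembl rows apart (0.0585) and with the replicate block (-1.59, 0.0615), the 1 member call that the block changed. Among list genes, no filter ended the 42 h calls of RORA (0.0892) and CYP26A1 (0.0773) and the 50 h calls of RORA (0.0848), POU5F1 (0.0523) and LIN28A (0.104), as the time points alone did for RORA (0.0841 and 0.0826), POU5F1 (0.0544) and LIN28A (0.122). LIN28A was also lost by TMM (0.0839), without the trend (0.175), with the replicate block (0.0531) and with Ensembl rows apart (0.0538), and POU5F1 without the trend (0.0965). For 50 h against 42 h the gene count was 24 with a mean of at least 5 TPM, 27 without the trend, 7 with the replicate block, 4 with Ensembl rows apart and 1 with both time points alone. Uncalled values turned sign: NR2F6 at 50 h (-0.042 by TMM, -0.034 by quantile) and at 72 h (-0.034 by TMM), IRX2 for late minus early (0.017 by TMM, 0.096 by quantile) and NR6A1 in the middle contrast (-0.0013 by quantile). Leaving out each library gave ranges of log2 change. At 42 h against 34 h they were IRX1 1.02 to 1.35, IRX2 -0.012 to 0.093, IRX3 1.13 to 1.44, IRX5 1.03 to 1.23 and NR2F6 -0.21 to 0.0905. At 50 h against 34 h they were IRX3 0.77 to 1.08, IRX5 1.13 to 1.26, NR2F6 -0.26 to 0.27 and NR6A1 0.56 to 0.86. For 50 h against 42 h they were IRX5 -0.029 to 0.17 and NR2F6 -0.20 to 0.33. At 72 h they were NR2F6 -0.081 to 0.14 against 34 h, and IRX1 0.77 to 1.10, NR2F2 0.99 to 1.23 and NR2F6 -0.25 to 0.29 against 50 h. For late minus early they were IRX2 -0.091 to 0.048, IRX3 -1.74 to -1.44, IRX5 -2.38 to -1.76, NR2F2 -0.17 to 0.31 and NR2F6 -0.52 to 0.54. In the middle contrast they were IRX5 0.85 to 1.15, NR2F6 -0.17 to 0.093 and NR6A1 -0.025 to 0.12. Gene counts ran from 1158 to 2508 at any time (2587 with all libraries), 160 to 385 at 42 h (384), 412 to 809 at 50 h (933) and 1840 to 3661 at 72 h (3578) against 34 h, 1 to 8 for 50 h against 42 h, 319 to 929 for 72 h against 50 h (1093), 93 to 197 for late minus early and 268 to 434 for the middle contrast. With 1 library left at a time point, its spread is assumed to be that of the others. The 2 libraries a time point, and unknown read depth for the low genes, limit all of these.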
